A study of Mus musculus with 4 samples.

Results

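The proteasome genes of tumour leukocytes are described here across cell types and between 2 single-cell RNA libraries. The members are all 46 genes, of 31053 in the files, whose symbols start with Psma, Psmb, Psmc, Psmd or Psme and a digit, plus Pomp. The cells came from B16 melanomas, tumours of a transplanted C57BL/6 mouse melanoma line, taken on day 12 from male C57BL/6 mice and sorted for CD45, the surface protein shared by leukocytes. The mice were labelled ATPIF1 knock-out (KO) or wild-type (WT), and how the knock-out was made is not given in the sources used here. ATPIF1 blocks the mitochondrial ATP synthase when that enzyme runs backwards. The labels give 6 mice without saying whether per genotype. Tumour suspensions of a genotype were mixed, so each genotype has 1 pooled library and no replicate. No p-value is therefore given, every interval in parentheses is a 95% interval for counting error only, and every ratio compares these 2 libraries rather than the genotypes.

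The proteasome is the barrel-shaped protease that degrades ubiquitin-tagged proteins. Its 20S core is a stack of alpha and beta rings, closed or opened by a 19S cap or by PA28 activators. The catalytic beta subunits of most cells are Psmb6 (β1), Psmb7 (β2) and Psmb5 (β5). Under interferon-gamma, and in many leukocytes at rest, they are replaced by Psmb9, Psmb10 and Psmb8, which gives the immunoproteasome, whose peptides are often well suited to major histocompatibility complex (MHC) class I. Psme1 and Psme2 encode the PA28 alpha and beta chains, also induced by interferon-gamma, and Pomp is the chaperone that helps the core assemble.

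Psmb8 and Psmb9 lie in the MHC class II region of chromosome 17 on either side of Tap1, a chain of the transporter that carries peptides into the endoplasmic reticulum. The DNA before 3 of the catalytic genes is shown. They include Psmb8 and Psmb5, the only genes with a motif among those whose stretches outside annotated genes were searched singly. The stretches before Psmb10, Psmb6, Psme1 and Psme2 were searched too, held none and are not shown. Sequences and coordinates are those of RefSeq on GRCm38.p6, in whose gene table all 46 members were found. Psmb9 and Tap1 are read in opposite directions from a shared stretch of 225 bases, chr17:34187331-34187555, given on the minus strand up to the Psmb9 start. Psmb8 starts 969 bases beyond the end of Tap1, and the 250 bases before it are chr17:34197945-34198194 on the plus strand. The 250 bases before the constitutive Psmb5 are chr14:54617996-54618245 on the minus strand. Capitals mark the motifs named below.
Psmb9 and Tap1: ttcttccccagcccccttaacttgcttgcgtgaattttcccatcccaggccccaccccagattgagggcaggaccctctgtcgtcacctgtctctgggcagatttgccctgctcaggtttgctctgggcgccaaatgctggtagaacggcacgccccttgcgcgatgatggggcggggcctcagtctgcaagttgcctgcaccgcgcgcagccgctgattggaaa
Psmb8: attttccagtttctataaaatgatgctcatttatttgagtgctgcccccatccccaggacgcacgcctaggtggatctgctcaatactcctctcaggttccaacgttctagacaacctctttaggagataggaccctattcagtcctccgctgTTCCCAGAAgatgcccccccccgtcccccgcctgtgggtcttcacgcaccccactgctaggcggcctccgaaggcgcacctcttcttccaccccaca
Psmb5: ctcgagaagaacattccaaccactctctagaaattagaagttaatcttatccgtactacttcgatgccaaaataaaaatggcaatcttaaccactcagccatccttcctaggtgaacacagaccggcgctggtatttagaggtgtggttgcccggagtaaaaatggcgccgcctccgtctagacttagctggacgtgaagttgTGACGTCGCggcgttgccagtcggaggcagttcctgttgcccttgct

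The capitals before Psmb8 match the GAS motif TTCNNNGAA (interferon-gamma activated site), 97 to 89 bases upstream. Those before Psmb5 match the antioxidant element TGACNNNGC, 47 to 39 bases upstream. Both strands were searched. GAS was in 7.02% of the 32851 windows of 250 bases in the table and in 1 of the 39 members with a whole window, Psmb8. The antioxidant element was in 10.2% of all windows and in 5 members (Psmb5, Psmb6, Psmc6, Psmd12 and Psmd9). A member counts here if any of its windows holds the motif. The Psmb6 match reaches into its annotated gene, since the 217 bases of the window before that gene held none. The interferon-stimulated response element, searched as 2 copies of GAAA set 2 bases apart, was in 2.98% of windows and in 3 members (Psmb3, Psmd4 and Psmd9), and an NF-kB motif, searched as GGG, then 2 bases of any kind, then TTTCC, in 1.41% and in 0 members. A match is a description of these letters, not a binding site.

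The library labelled KO held 24385843 UMIs and that labelled WT 35152477. A UMI marks 1 captured transcript, and since the 5′ chemistry counts 1 tag per transcript, levels are given as UMIs per 1000000 UMIs of a cell type (CPM) without a length correction. With at least 1000 UMIs, 500 genes and at most 10% mitochondrial UMIs, 3211 KO-labelled and 4370 WT-labelled cells remained, with medians of 4266 and 4314.5 UMIs. Each cell went to the type with the largest share of its markers detected, which gave 13 types beside T cells of no further class, and 11.8% of KO-labelled and 10.4% of WT-labelled cells stayed without a type. The libraries shared 29 cell barcodes. Atpif1 stood at 679 CPM in the cells of the library labelled KO, against 576 CPM in those of the library labelled WT. The targeted gene is thus not lower where it should be, and 5′ tags need not fall in the deleted part, so no direction below can be tied to the loss of ATPIF1.

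Among the types, cDC1 and migratory dendritic cells carried the highest levels of Psmb8 and Psmb9, and tumour cells the lowest of Psmb8. Psmb8 stood at 1493 CPM in KO-labelled and 1356 CPM in WT-labelled cDC1, the type 1 conventional dendritic cells that cross-present antigen, and at 1188 and 1143 CPM in migratory dendritic cells. It stood at 485 and 354 CPM in CD8 T cells and at 417 and 264 CPM in macrophages. In melanoma cells that passed the sort it stood at 56.7 and 3.29 CPM. Psmb10 was highest in monocytes, at 246 and 184 CPM. Psmb6 spanned a narrower range than Psmb8. It lay between 113 CPM (B cells) and 335 CPM (macrophages) in the library labelled KO, and between 92.7 CPM (neutrophils) and 353 CPM (macrophages) in that labelled WT.

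The immune share, the UMIs of Psmb8, Psmb9 and Psmb10 among those of all 6 catalytic genes, differed between the types, in an order that was not the same in both libraries. Migratory dendritic cells had 79.0% (76.4 to 81.4) in the library labelled KO and 78.0% (76.0 to 80.0) in that labelled WT. cDC1 had 77.8% in both, which overlaps with migratory dendritic cells. CD8 T cells had 66.4% (64.5 to 68.3) in the library labelled KO and 68.9% (65.7 to 71.9) in that labelled WT. CD4 T cells (72.0% and 69.2%), plasmacytoid dendritic cells (73.1% and 67.4%) and regulatory-like T cells (71.6% and 64.3%) lay near them with overlapping intervals. Monocytes, the circulating precursors of tumour macrophages, had 61.3% (59.6 to 63.1) and 56.0% (54.2 to 57.8). B cells changed place, at 76.1% (67.3 to 83.5) in the library labelled KO, which overlaps with cDC1. In that labelled WT they had 56.8% (52.6 to 60.9), which overlaps with monocytes. Macrophages had 49.7% (48.8 to 50.7) and 39.0% (38.2 to 39.8). They were the lowest leukocyte type in both libraries, although in the library labelled KO the intervals of the 29 neutrophils, at 60.8% (49.1 to 71.6), and of the 9 NK cells, at 63.2% (38.4 to 83.7), reached that of macrophages. Melanoma cells had 21.1% (17.1 to 25.4) and 6.45% (5.47 to 7.55).

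**Figure D1:**
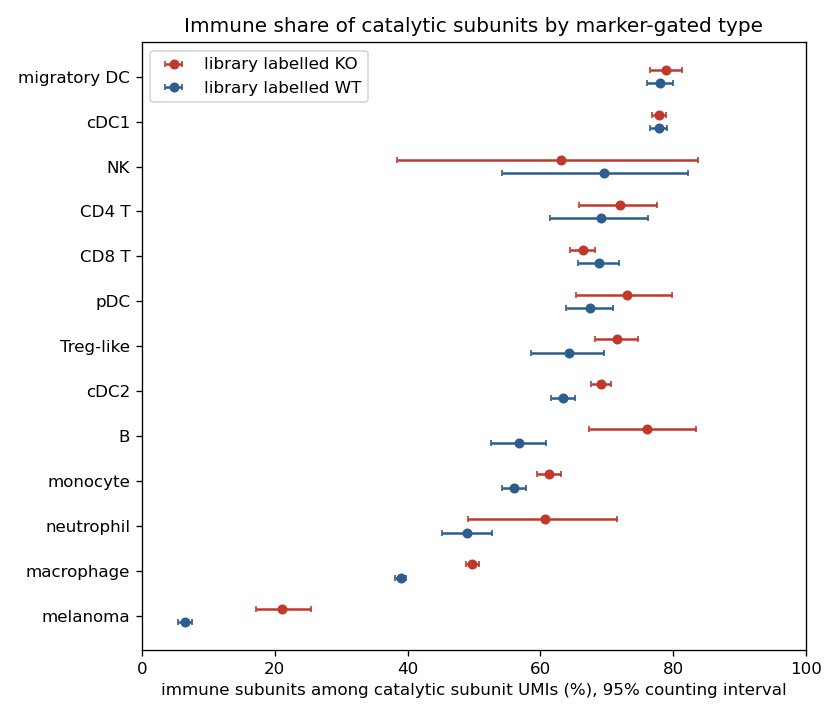
Immune share of the catalytic subunit UMIs (horizontal axis, %) in each marker-gated type, with 95% counting intervals, red for the library labelled KO and blue for that labelled WT. Migratory dendritic cells and cDC1 stand near 78% in both, macrophages at 49.7% and 39.0%, and melanoma cells at 21.1% and 6.45%.

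The replaced pairs did not share 1 order. In macrophages Psmb9 made up 32.9% of its pair with Psmb6 in the library labelled KO and 19.9% in that labelled WT. Psmb10 made up 63.2% and 54.8% of its pair with Psmb7, and Psmb8 made up 55.5% and 48.1% of its pair with Psmb5. In cDC1 the order was another. There Psmb8 led with 82.3% and 84.3%, Psmb9 had 75.5% and 72.2%, and Psmb10 had 59.4% and 57.2%.

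**Figure D2:**
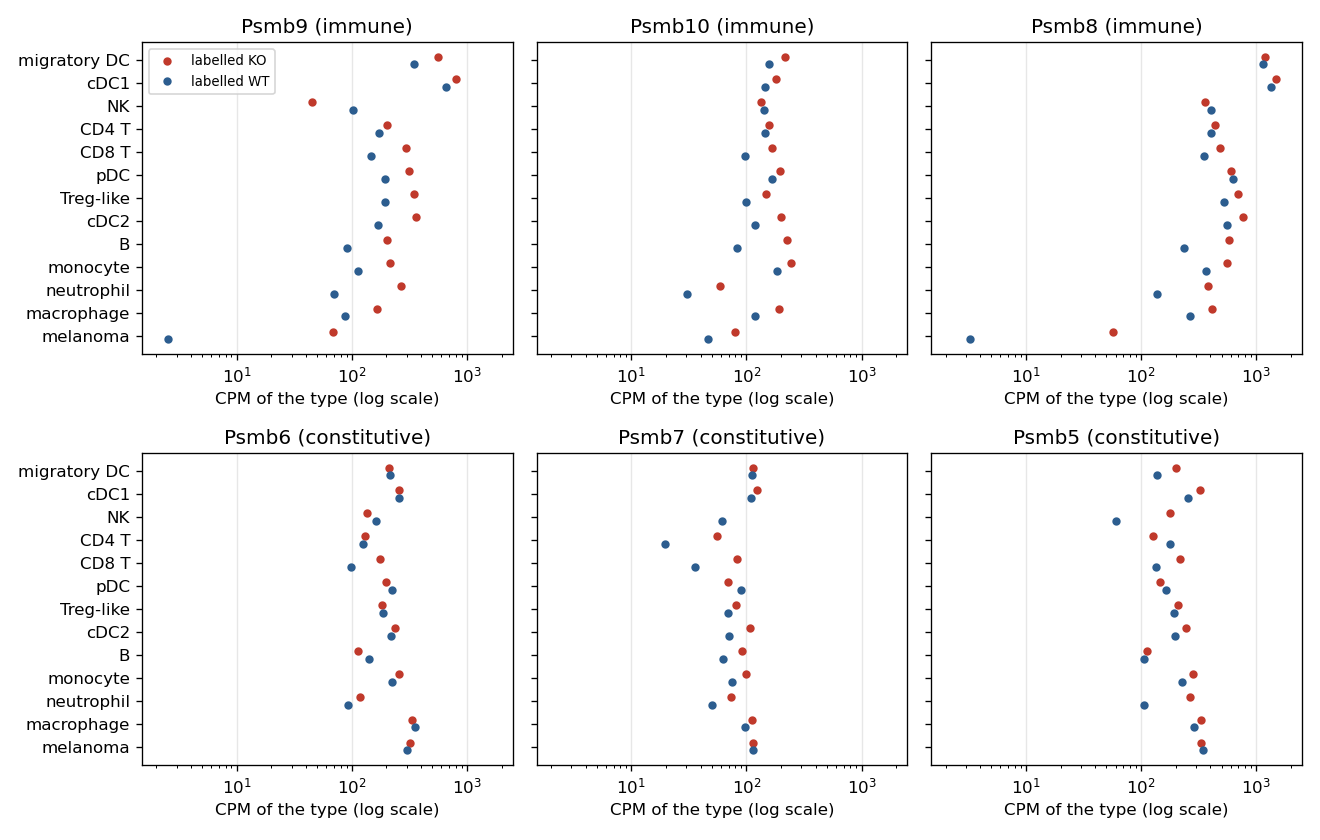
Levels of the 6 catalytic subunits (horizontal axis, CPM of the type, log scale) in each type, red for the library labelled KO and blue for that labelled WT, with immune subunits above and the constitutive subunits they replace below. Psmb8 spans 3.29 to 1493 CPM, and Psmb6 spans 92.7 to 353 CPM. Psmb7 of KO-labelled NK cells, at 0 UMIs, is not drawn.

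The ratio of immune to constitutive UMIs was compared between the libraries as a log2 ratio of ratios, which does not depend on how the libraries are scaled. It was above 0 in 11 of 13 types, with an interval above 0 in 6 (macrophages, monocytes, type 2 conventional dendritic cells or cDC2, regulatory-like T cells, B cells and melanoma cells) and an interval below 0 in none. It was 0.63 (0.56 to 0.71) in macrophages, 0.32 (0.16 to 0.47) in monocytes and 0.37 (0.22 to 0.52) in cDC2. In cDC1 it was 0.0037 (-0.14 to 0.14). In CD8 T cells it was -0.16 (-0.41 to 0.08), an interval that spans 0. B cells had 1.27 (0.59 to 1.99), with 44 cells in the library labelled KO against 369 in that labelled WT. In these B cells the 6 cDC2 markers summed to 454 and 33.8 CPM (4 and 6 detected), the 7 pDC markers to 2064 and 1167 CPM (2 and 6 detected) and the 7 neutrophil markers to 45.4 and 389 CPM (2 and 7 detected). The part of these markers in the B cell ratio was not tested. Of the pairs, Psmb9 to Psmb6 had an interval above 0 in 9 types, Psmb8 to Psmb5 in 4 and Psmb10 to Psmb7 in 2. Psmb8 to Psmb5 was lower in migratory dendritic cells, at -0.50 (-0.94 to -0.04).

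In macrophages 6 of 45 measured members (at least 20 UMIs over both libraries) were at least 1.5-fold higher in the library labelled KO, against 7.01% of all genes measured in that type. None was 1.5-fold lower, against 7.48%. The 6 were the 3 immune catalytic genes, Psme1, Psme2 and Psme2b. Psme2b is a near-copy of Psme2, so how reads were divided between both is uncertain. The median of the members was 0.09 on the log2 scale, beside -0.0035 over all genes.

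Psmb9 stood at 164 CPM in KO-labelled and 87.6 CPM in WT-labelled macrophages, a log2 ratio of 0.91 (0.78 to 1.03). Psmb10 stood at 192 and 119 CPM (0.69, 0.58 to 0.80). Psmb8 had a log2 ratio of 0.66 (0.58 to 0.73). The immune genes thus stood 1.5-fold or more apart while the genes they replace did not. Psmb5 stood at 335 and 286 CPM (0.23, 0.15 to 0.31), Psmb7 at 111 and 97.9 CPM (0.18, 0.05 to 0.32), and Psmb6 at 335 and 353 CPM (-0.08, -0.15 to -0.0029). The PA28 chains stood apart like the immune subunits. Psme2 stood at 488 and 290 CPM (0.75, 0.68 to 0.82) and Psme1 at 406 and 263 CPM (0.63, 0.55 to 0.70). Psme3, the nuclear PA28 gamma chain, stood at 48.6 and 49.5 CPM (-0.03, -0.23 to 0.17).

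The rest of the particle differed little in macrophages. The alpha ring genes lay between 0.03 (Psma3) and 0.51 (Psma8, a testis subunit with 15 and 18 UMIs), and Psma7 stood at 469 and 359 CPM (0.39, 0.32 to 0.45). Pomp stood at 427 and 370 CPM (0.21, 0.14 to 0.28). None of the 11 non-ATPase genes of the 19S cap passed 1.5-fold, against 7.01% of all genes higher and 7.48% lower, so that count by itself says little. Their median was 0.0072, beside -0.0035 over all genes. The lowest members were the cap ATPase Psmc2 at 60.5 and 77.4 CPM (-0.36, -0.53 to -0.18), the cap assembly chaperone Psmd9 at 30.01 and 38.03 CPM (-0.34, -0.59 to -0.10) and the cap subunit Psmd8 at 215 and 252 CPM (-0.23, -0.33 to -0.14). Psmb11, the thymus subunit, had 0 UMIs in both libraries.

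**Figure D3:**
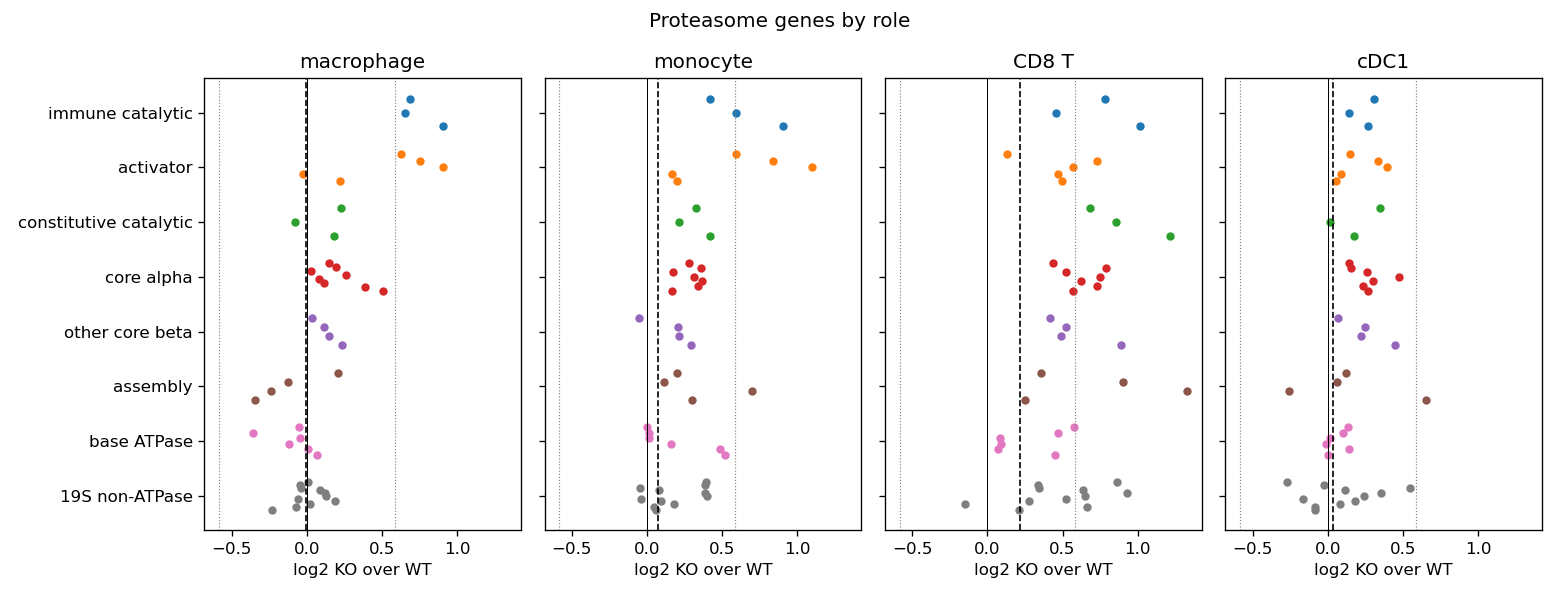
Log2 ratio of CPM, library labelled KO over that labelled WT (horizontal axis), of each measured member with a named role, by role, in macrophages, monocytes, CD8 T cells and cDC1. Dashed lines mark the median of all genes and dotted lines 1.5-fold. In macrophages the immune subunits and 3 activators lie to the right of the 1.5-fold line and all other members to its left, while in CD8 T cells members of most roles lie to the right of the dashed line.

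The macrophage pools also differed in makeup and depth. The 7 monocyte markers summed to 2225 CPM in KO-labelled macrophages and 1364 CPM in WT-labelled ones, and the 8 macrophage markers to 11507 and 13659 CPM. All 7 and all 8 were detected in both. The cDC1 markers summed to 343 and 149 CPM. Median UMIs were 6006 and 8134 per cell, and the estimated free RNA was 6.93% and 2.67%. The immune share of empty droplets was 59.9% and 45.4%. Within strata of the macrophages the share of the library labelled KO was the higher one each time. With 0 or 1 monocyte marker detected it was 41.9% (39.9 to 44.0) in 263 KO-labelled cells and 35.3% (34.0 to 36.6) in 519 WT-labelled cells. With 3 or more it was 54.8% and 45.0%. With no cDC1 marker UMI it was 42.5% (40.5 to 44.4) and 34.6% (33.1 to 36.1). From 5000 to under 10000 UMIs it was 51.0% and 42.0%. With the estimated free RNA subtracted, the macrophage shares were 49.1% and 38.8%.

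The size of the difference varied with these strata. The ratio of ratios was 0.41 (0.26 to 0.55) with 0 or 1 monocyte marker, 0.65 with 2 and 0.57 with 3 or more. It was 0.48 (0.33 to 0.63) with no cDC1 marker UMI, where 3 members were 1.5-fold higher and 1 lower. Among macrophages with 0 or 1 monocyte marker, 2 members rather than 6 were 1.5-fold higher. These stratum counts have no share of all genes beside them, so by themselves they say little.

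**Figure D4:**
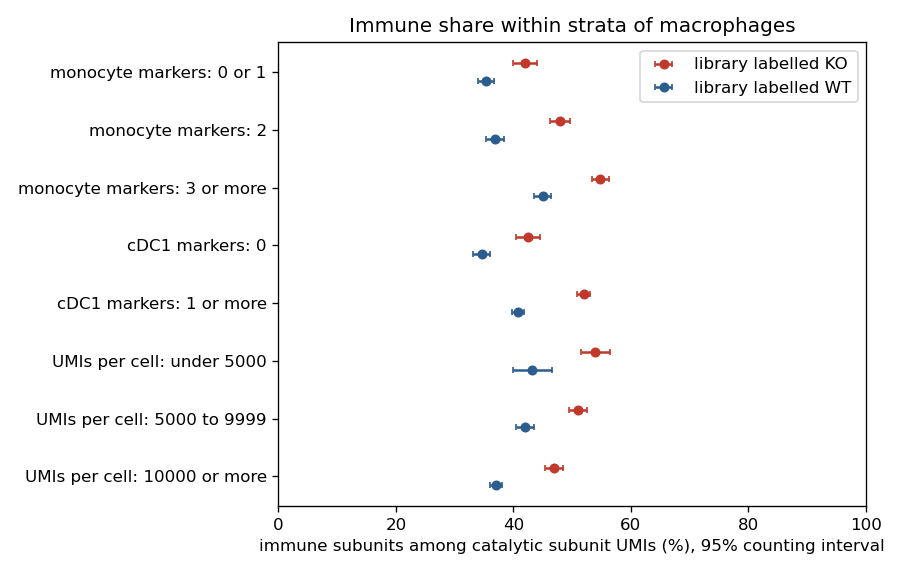
Immune share of catalytic subunit UMIs (horizontal axis, %, with 95% counting intervals) of macrophages split by monocyte and cDC1 markers with a UMI and by UMIs per cell, red for the library labelled KO and blue for that labelled WT. The KO-labelled share is the higher one in all strata, for example 41.9% against 35.3% with 0 or 1 monocyte marker and 54.8% against 45.0% with 3 or more.

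Per cell the immune shares of macrophages were widely spread. Among the 424 KO-labelled and 574 WT-labelled macrophages with at least 10 catalytic UMIs, the median immune share was 50% and 37.8%. The interquartile range ran from 33.3% to 66.7% in KO-labelled and from 25% to 52.2% in WT-labelled cells, so single cells of both libraries overlapped widely. The spread in cDC1 was narrower, with medians of 77.8% and 76.9% and interquartile ranges from 73.1% to 83.3% and from 73.5% to 82.4%. More cDC1 reached 10 catalytic UMIs, 86.1% of KO-labelled and 89.2% of WT-labelled ones, against 44.7% and 46.4% of macrophages. Fewer UMIs widen the counting error of a share per cell, and the part of that error in these spreads was not tested.

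Monocytes had 6 of 43 members at least 1.5-fold higher in the library labelled KO, against 13.5% of all genes, and none lower, against 8.52%. They were Psmb8, Psmb9, Psme1, Psme2, Psme2b and the assembly chaperone Psmd5, of which Psme1 (0.59) lay just past 1.5-fold and the interval of Psmd5 (-0.0070 to 1.42) reached 0. Their share is near the background, so the count by itself says little. Psmb9 stood at 214 and 114 CPM (0.91, 0.68 to 1.14), Psme2 at 630 and 353 CPM (0.84, 0.71 to 0.97) and Psmb8 at 555 and 368 CPM (0.59, 0.46 to 0.72). Psmb10 stood at 246 and 184 CPM (0.42, 0.23 to 0.61), and Pomp at 424 and 370 CPM (0.20, 0.06 to 0.34). Monocyte markers were alike here, at 5426 and 5329 CPM, and neutrophil markers summed to 72.8 and 240 CPM. The 7 cDC1 markers summed to 385 and 170 CPM (6 and 3 detected), the cDC2 markers to 257 and 183 CPM and the cycling markers to 126 and 20.2 CPM. In the 109 KO-labelled and 177 WT-labelled monocytes with no cDC1 marker UMI the immune shares were 54.0% (50.04 to 57.9) and 53.2% (50.1 to 56.3), and the ratio of ratios was 0.04 (-0.25 to 0.34), an interval across 0. In the monocytes with such a UMI it was 0.35 (0.16 to 0.53), and the difference between these 2 strata was not tested. The part of the neutrophil markers was not tested. The lowest members were the core subunit Psmb1 (-0.05, -0.23 to 0.13) and the cap subunits Psmd12 (-0.04) and Psmd3 (-0.04).

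In cDC2 6 of 43 members were 1.5-fold higher, against 8.82% of all genes, and none lower, against 9.37%. They were Psmb9, Psmb10, Psme2, Psmb7, Psma4 and Psma5. Psmb9 stood at 361 CPM in KO-labelled and 170 CPM in WT-labelled cDC2 (1.09, 0.90 to 1.28). In cDC2 the cDC1 markers summed to 593 and 280 CPM (7 and 6 of 7 detected), the monocyte markers to 1594 and 1116 CPM, and the estimated free RNA was 2.86% and 0.755%. In the 45 KO-labelled and 56 WT-labelled cDC2 with no cDC1 marker UMI the immune shares were 66.1% (61.3 to 70.7) and 59.4% (54.9 to 63.8), with a ratio of ratios of 0.42 (0.0069 to 0.82). In cDC1, 1 of 44 members was 1.5-fold higher, against 9.41% of all genes, and none lower, against 7.05%. It was Psmd9 with 60 and 26 UMIs and an interval that reached 0 (0.66, -0.03 to 1.38). The cDC1 members with the highest bounds were the alpha subunit Psma4 at 295 and 212 CPM (0.48, 0.27 to 0.68), the beta subunit Psmb4 at 336 and 247 CPM (0.44, 0.25 to 0.64) and Psme2 at 829 and 659 CPM (0.33, 0.21 to 0.45). Psmb9 stood at 798 and 662 CPM (0.27, 0.15 to 0.39) and Psmb10 at 180 and 146 CPM (0.30, 0.05 to 0.56), both under 1.5-fold. The lowest were Psmc3ip (-0.30), a gene the naming rule takes in that encodes a recombination factor and no subunit, the cap subunit Psmd1 (-0.27) and Psmd5 (-0.26), each with an interval across 0.

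The smaller pools rest on fewer UMIs. Of 39 measured members in regulatory-like T cells 7 were 1.5-fold higher in the library labelled KO, against 13.3% of all genes, and 1 lower, against 13.9%. Of 41 in migratory dendritic cells 2 were higher (Psmb9 and Psme2), against 11.2%, and 4 lower, against 15.8%. Of 38 in plasmacytoid dendritic cells 3 were higher, against 12.4%, and 8 lower, against 25.3%. Psmb9 was among the higher ones in all 3. In the 19 KO-labelled and 88 WT-labelled plasmacytoid dendritic cells, neutrophil markers summed to 9.82 and 1712 CPM and macrophage markers to 1021 and 311 CPM. Their estimated free RNA was 5.57% and 0.861%, beside 7.80% and 1.26% in migratory dendritic and 2.44% and 0.849% in regulatory-like T cells. Psmb9 of empty droplets stood at 227 and 102 CPM. The part of these differences in the Psmb9 values was not tested. B cells had 11 of 40 higher, against 18.8%, and 7 lower, against 24.7%, and neutrophils had 20 of 41 higher, against 28.6%, and 5 lower, against 17.3%. Psmb8, Psmb9, Psmb10, Psme1 and Psme2 were higher in both. Psmb10 of neutrophils rests on few UMIs, at 59.0 CPM in a KO-labelled pool of 67785 UMIs and 30.5 CPM in the WT-labelled one. Its ratio of ratios with Psmb7 there was 0.39 (-2.03 to 2.69), an interval across 0. The 29 KO-labelled neutrophils held an estimated 25.1% free RNA, against 6.46% in the WT-labelled ones, and their 6 cDC2 markers summed to 1106 and 140 CPM, with 4 and 6 detected. Their neutrophil markers summed to 39537 and 55139 CPM. The part of these differences in the neutrophil values was not tested. CD4 T cells had 0 of 29 higher, against 20.3%, and 3 lower (Psmc3, Psmc5 and Psmd11), against 9.59%. T cells of no further class had 4 of 43 higher, against 13.8%, and 0 lower, against 7.92%. NK cells had 1 of 4 higher, against 11%, and 0 lower, against 20.9%. Cells without a type had 6 of 43 higher, against 12.4%, and 2 lower, against 10.8%.

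CD8 T cells showed another pattern, in which constitutive and immune genes stood higher together. At least 1.5-fold higher in the library labelled KO were 18 of 43 members, against 25.2% of all genes, and none was lower, against 8.37%. The member median was 0.53, beside 0.21 over all genes. Psmb7 stood at 83.3 CPM in KO-labelled and 35.9 CPM in WT-labelled CD8 T cells (1.22, 0.68 to 1.78), Psmb9 at 295 and 146 CPM (1.02, 0.75 to 1.29) and the core subunit Psmb4 at 226 and 122 CPM (0.89, 0.59 to 1.19). Psmb6 stood at 177 and 97.97 CPM (0.86, 0.53 to 1.19) and Psmb5 at 218 and 136 CPM (0.68, 0.40 to 0.97). Psmb8 stood at 485 and 354 CPM (0.45, 0.27 to 0.63), under 1.5-fold, and so did Psme1 at 455 and 416 CPM (0.13, -0.04 to 0.30). The pools also differed in makeup. Neutrophil markers summed to 19.4 CPM in KO-labelled and 152 CPM in WT-labelled CD8 T cells, macrophage markers to 381 and 668 CPM, B cell markers to 4.11 and 36.9 CPM, T cell markers to 2803 and 1978 CPM and regulatory T cell markers to 304 and 104 CPM. Their part in the CD8 T values was not tested. The lowest members were the cap subunit Psmd6 at 49.9 and 55.3 CPM (-0.15, -0.65 to 0.36) and the cap ATPases Psmc5 (0.07) and Psmc3 (0.08).

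Cycling cells, those with at least 2 of 8 cell cycle markers, made up 11.2% of KO-labelled and 1.98% of WT-labelled CD8 T cells. Without them the immune shares were 70.2% and 69.4%, and 11 rather than 18 members were 1.5-fold higher. That count has no share of all genes beside it, so by itself it says little. The ratio of ratios without cycling cells was 0.05 (-0.22 to 0.33), on the other side of 0.

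The cycling state was therefore described within each library, over all T cells. The 80 cycling T cells of the library labelled KO had 27 of 44 members at least 1.5-fold higher than the 869 others, against 26.0% of all genes, and 1 lower, Psme2b, against 17.0%. The 20 cycling T cells of the library labelled WT had 29 of 43 higher than the 673 others, against 33.6%, and 1 lower, the cap ATPase Psmc6, against 20%. Psmb7 stood at 137 CPM in cycling and 53.7 CPM in other KO-labelled T cells (1.35, 0.98 to 1.72), and Psmb5 at 299 and 152 CPM (0.98, 0.74 to 1.21). Psmb6 had 0.75 (0.49 to 1.00). Psmb8 (0.55, 0.40 to 0.70) and Psmb9 (0.68, 0.47 to 0.88) stood apart less than Psmb7 and Psmb5, with intervals that overlapped that of Psmb6. Psmb10 (0.13, -0.16 to 0.41) and Psme1 (0.10, -0.07 to 0.27) had intervals across 0. In WT-labelled T cells Psmb7 had 0.70, Psmb5 0.71, Psmb6 0.62, Psmb8 0.64, Psmb9 0.67 and Psmb10 0.09, with overlapping intervals. The immune share was 64.0% (61.5 to 66.4) in cycling and 70.6% (68.9 to 72.2) in other KO-labelled T cells. In WT-labelled T cells it was 65.5% (59.6 to 71.0) and 67.1% (65.0 to 69.2), with overlapping intervals. Median depth differed, at 8276 and 2251 UMIs in KO-labelled and 9538 and 2785 UMIs in WT-labelled cells. T cell classes were mixed in other shares as well. Regulatory-like cells were 19 of 80 cycling and 49 of 869 other KO-labelled T cells, and 10 of 20 cycling and 31 of 673 other WT-labelled ones. Without them 29 of 43 members were 1.5-fold higher in cycling KO-labelled T cells, against 27.03% of all genes, and 22 of 42 in WT-labelled ones, where 10 cycling cells remained, against 27.4%. The immune share was then 61.8% (58.9 to 64.6) in cycling and 70.2% (68.5 to 72.0) in other KO-labelled T cells, and 69.7% (60.7 to 77.7) and 67.2% (65.0 to 69.4) in WT-labelled ones. After thinning to 1000 UMIs 26 members were 1.5-fold higher in KO-labelled and 17 in WT-labelled T cells, counts with no share of all genes beside them.

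**Figure D5:**
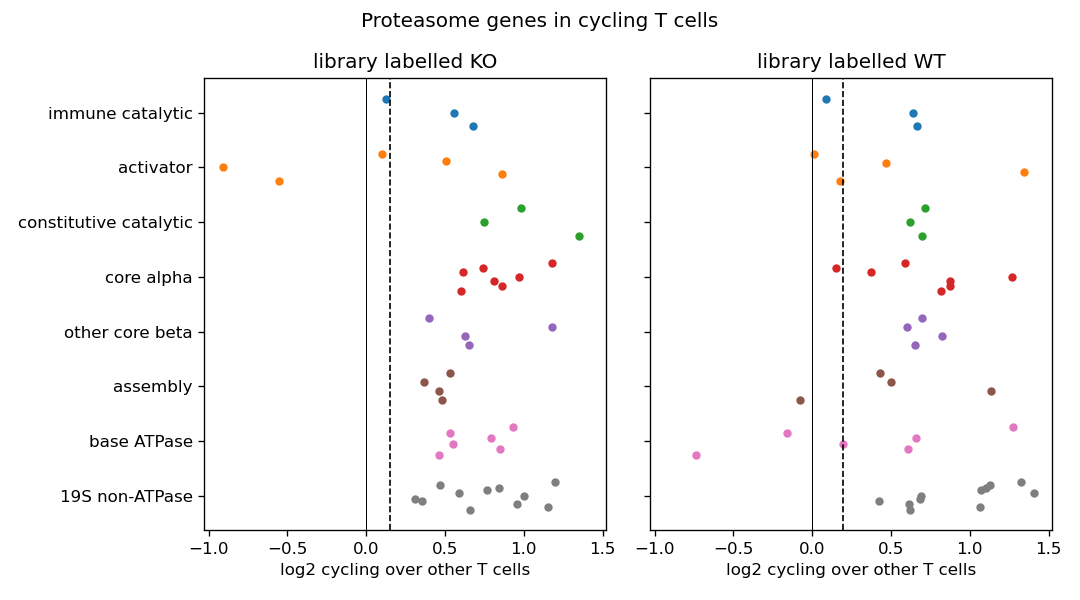
Log2 ratio of CPM in cycling over other T cells (horizontal axis) for each measured member with a named role, by role, in the library labelled KO (left) and that labelled WT (right), with the median of all genes as a dashed line. Constitutive catalytic genes have medians of 0.98 and 0.70, immune catalytic genes 0.55 and 0.64. Psme2b of WT-labelled cells, at 0 UMIs in cycling cells, is not drawn.

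Melanoma cells descend from the injected line, so their own Atpif1 is not that of the host. The library labelled KO held 17 and that labelled WT 57. Of 43 measured members 5 were 1.5-fold higher in the library labelled KO, against 13.5% of all genes, and 2 lower, against 17.9%. Psmb8 had 23 UMIs in KO-labelled and 9 in WT-labelled melanoma cells, and Psmb9 had 28 and 7. The CPM were 69.1 and 2.56 for Psmb9 (4.76, 3.53 to 6.20). These few UMIs were unevenly spread, since 6 of 17 KO-labelled and 8 of 57 WT-labelled cells held any UMI of either gene, and 1 KO-labelled cell held 24 of 51. Without that cell the immune share was 14.8% rather than 21.1% in KO-labelled cells. Macrophage markers summed to 942 CPM in KO-labelled and 499 CPM in WT-labelled melanoma cells. In the 11 KO-labelled and 46 WT-labelled cells with at most 3 UMIs of the leukocyte genes Ptprc, Lyz2, Tyrobp and Fcer1g, the immune share was 19.1% (14.5 to 24.4) and 5.68% (4.66 to 6.84). The same KO-labelled cell is among the 11, and the other 10 had 7.45% (4.13 to 12.2), an interval that holds the WT-labelled value.

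Pathway genes from lists with no member in them were read beside the proteasome. Of 12 class I peptide loading genes, 7 were 1.5-fold higher in KO-labelled macrophages, against 7.01% of all genes, and their median was 0.76. Nlrc5, the transactivator of class I genes, stood at 25.2 and 9.88 CPM (1.35, 1.00 to 1.71). Tap1 stood at 105 and 49.2 CPM (1.10, 0.94 to 1.26). Of 15 interferon signalling genes, 4 were higher and 1 lower, against 7.01% and 7.48% of all genes. The transcription factor Irf7 stood at 165 and 74.3 CPM (1.15, 1.02 to 1.28), while the feedback inhibitor Socs3 stood at 105 and 167 CPM (-0.67, -0.80 to -0.54). Socs1, another feedback inhibitor, went the other way, at 54.9 and 36.0 CPM (0.61, 0.40 to 0.82). Of 12 other proteasome genes, assembly chaperones and regulators among them, 0 passed 1.5-fold. Of 15 ubiquitin and shuttling genes 1 did, the autophagy receptor Sqstm1 at 266 and 508 CPM (-0.93, -1.01 to -0.86), and the polyubiquitin gene Ubb had -0.39 (-0.43 to -0.36).

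Monocytes had log2 ratios of 1.45 for Nlrc5, 0.80 for Irf7 and 0.57 for B2m, the last under 1.5-fold, and Socs3 at -1.08, Sqstm1 at -0.97 and Nfe2l2 at -0.74. Socs1 had 0.56 (0.22 to 0.91) in them. In cDC1 none of the 12 class I genes passed 1.5-fold, against 9.41% of all genes higher and 7.05% lower, so that count by itself says little. Their median was 0.25, beside 0.03 over all genes. B2m, the class I light chain, had 0.50 (0.40 to 0.60) and H2-K1 0.37, and Irf7 had 0.43 (0.18 to 0.69). The lowest there were Socs3 (-0.71), Jak1 (-0.50) and Sqstm1 (-0.41). In CD8 T cells 0 of 15 interferon signalling genes were higher and 4 lower, against 25.2% and 8.37% of all genes. Socs3 stood at 124 and 329 CPM (-1.40, -1.66 to -1.15) and Socs1 at 148 and 324 CPM (-1.13, -1.37 to -0.89). Among the class I genes Tap2 had 1.01 (0.60 to 1.44), and Vcp, the unfoldase that hands substrates to the proteasome, had 0.73 (0.41 to 1.06). Ddi2 had 1.60 (0.55 to 2.82) on 45 and 9 UMIs, and Nfe2l2 had -1.56.

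The genes whose levels went most with the summed immune subunits were ranked by Pearson r of log2(CPM + 10) over 26 sums of a type and a library with at least 50000 UMIs, among 2525 genes with a mean of at least 50 CPM. These sums share 2 libraries, so r is a description. Both melanoma pools are among them and both NK pools, under 50000 UMIs, are not. The summed immune subunits were lowest in melanoma cells, at 205 CPM in KO-labelled and 52.6 CPM in WT-labelled ones. The values of r thus take in tumour cells as well as leukocytes, and r over leukocytes alone is not given. Of all genes Psme1 ranked first (r = 0.95), and Psme2 was the sixth (0.88). Outside the members the highest were Tap1 (0.95), Tapbp (0.94), Tap2 (0.90), Dock10 (0.89), Lsp1 (0.87), Tmsb4x (0.87), H2-T23 (0.87) and Taok3 (0.86). The constitutive catalytic genes were far down, with Psmb7 at 0.16, Psmb6 at 0.01 and Psmb5 at -0.06.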

How the data were processed

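Single-cell RNA libraries of CD45-sorted tumour leukocytes, 1 per genotype, were read as deposited UMI counts per gene and barcode, neither normalised nor filtered for cells (737280 barcodes each). Per the submitters' processing notes, Cell Ranger 3.1.0 and the mm10 build were used. T cell receptor libraries were not used here. Counts were summed per library and type with Python 3.11.15, numpy 2.4.6 and scipy 1.17.1, giving CPM with exact Poisson, shares with Clopper-Pearson and ratios with exact conditional binomial intervals. Only the interval of the log2 CPM ratio was tried on simulated data. Those counts were Poisson draws without clustering of UMIs in cells, so the trial could not show how the intervals fare with such clustering. A count of 0 was set to 3 counts in calls and medians, and such a bound was not allowed to pass 0. A type needed 3 of its markers with a UMI (2 for T, NK, B cells and neutrophils), thresholds chosen after cell counts were seen. Named by rule were the catalytic genes, Psme1, Psme2, Pomp, the 3 highest and 3 lowest members and pathway genes of 4 main types by the interval bound nearest 0, and the 8 genes most like the immune subunits; others were named after their values were seen. Free RNA was estimated from droplets of 10 to 100 UMIs. Doublets were kept. One interferon signalling gene is not reported here. Members and lists were chosen with earlier results of these data known.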

Additional observations from a re-analysis of the deposited data

How the results depend on the processing

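With 1 pooled library per genotype, nothing here has a replicate check, and members with few UMIs, small pools (KO-labelled B cells, neutrophils and melanoma cells) and Psme2b are the least certain. No paired analysis was possible because each genotype has 1 RNA library. Of 248 alternative values of the main results 194 were classed as the same, 34 as moved, 10 as stronger and 10 as weaker. The first class was wide for counts. Beside 18 higher CD8 T members in the main setting, 12, 13 and 25 were classed as the same. The macrophage ratio of ratios stayed above 0 in all 15 alternatives, between 0.41 and 0.98. For the other values the cause was not tested. Member counts below have no share of all genes beside them, so by themselves they say little.

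Thinning each cell to 1000 UMIs gave immune shares of 71.5% and 65.4% in KO-labelled and WT-labelled CD8 T cells (ratio of ratios 0.41, against -0.16), 52.1% in KO-labelled macrophages (ratio 0.79) and 75.8% in KO-labelled cDC1 (ratio -0.24). It gave 7 higher and 1 lower member in cDC1, 1 lower in CD8 T cells, 1 in macrophages and 2 in monocytes, and 17 rather than 29 members higher in cycling WT-labelled T cells. Psmb5 turned to -0.0392 in CD8 T cells and to -0.0021 in monocytes, and Psme1 to -0.0257 in cDC1. With 1 more marker for each gate the WT-labelled CD8 T share was 63.1% (ratio 0.21) and 2 cDC1 members were higher. Without cycling cells 11 members were higher in CD8 T cells, where the KO-labelled share was 70.2%, and 0 higher and 1 lower in cDC1. Means of per-cell CPM gave 71.2% in KO-labelled CD8 T cells and 51.2% and 40.3% in KO-labelled and WT-labelled macrophages. At 2-fold 3 members were higher in CD8 T cells, 0 in macrophages, 1 in monocytes and 0 in cDC1. With no UMI minimum 1 member was lower in cDC1. With 3 cycling markers 0 members were lower in cycling WT-labelled T cells.

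Single pairs gave, for Psmb9 to Psmb6, 0.16 in CD8 T cells, 0.98 in macrophages, 0.70 in monocytes and 0.25 in cDC1. Psmb10 to Psmb7 gave -0.43 in CD8 T cells, 0.51 in macrophages and 0.0022 in monocytes, and Psmb8 to Psmb5 gave 0.43 in macrophages and -0.21 in cDC1. Of 4 alternatives chosen after seeing the data, 1 kept macrophages and monocytes with no cDC1 marker UMI, which gave shares of 42.5% and 34.6% in macrophages (ratio 0.48, 3 members higher and 1 lower, Psmb6 0.0029, Psmb7 -0.02351) and of 54.0% and 53.2% in monocytes (ratio 0.04455). Without regulatory-like T cells 2 members were lower in cycling KO-labelled T cells. Macrophages with at most 1 monocyte marker had shares of 41.9% and 35.3% (ratio 0.41) and 2 members higher. Those with 5000 to under 10000 UMIs had 51.0% and 42.0% (ratio 0.52), and Psmb6 turned to 0.0085.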

Other observations

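The PA28 beta chain Psme2 was highest in migratory dendritic cells, at 2084 CPM in the library labelled KO and 1321 CPM in that labelled WT (log2 ratio 0.66, 0.53 to 0.79). In both libraries it stood above Psmb8 of the same cells, which had 1188 and 1143 CPM. The chains did not keep 1 ratio across types, since Psme1 of migratory dendritic cells stood at 1098 and 835 CPM while in cDC1 Psme1 stood above Psme2, at 1104 and 998 CPM. Pomp was highest in cDC1, at 685 and 631 CPM. Psmc3ip, the recombination factor, had 11 UMIs in cycling and 10 in other KO-labelled T cells (log2 ratio 1.81, 0.44 to 3.20).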
